A study of Mus musculus with 12 samples.

Results

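Iron handling and ferritin genes were followed across 12 RNA sequencing libraries of mouse bone marrow-derived macrophages (BMDMs). The group held 10 rows of the expression table, picked by gene symbol out of 38739, namely the ferritin rows Fth-ps3 and Ftl1, the iron exporter Slc40a1 and the ferroxidase Cp, the haem degradation enzymes Hmox1 and Blvrb, the siderophore-binding protein Lcn2, the iron hormone Hamp, the ferrireductase Steap4 and the iron regulatory protein Aco1. These 10 genes were chosen with their values in all 12 columns in view, so their levels and differences below are a description and carry no test. Of the 10, 8 passed the filter on low values (at least 1 in at least 3 of 12 samples after each column was rescaled to 1000000), and Hamp and Steap4 did not.

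The study compared wild-type (WT) macrophages with macrophages of mice lacking cyclic GMP-AMP synthase (cGAS-/-), an enzyme that senses DNA in the cytosol, both C57BL/6J, either untreated in medium (UT) or stimulated with lipopolysaccharide (LPS) from Escherichia coli, a bacterial endotoxin. There were 4 groups of 3 libraries, WT UT, cGAS-/- UT, WT LPS and cGAS-/- LPS. The sources disagree on the stimulation, since the sample labels give 100 ng/mL for 1 h and the methods give 150 ng/mL for 24 h, and the growth text of the WT samples names knockout mice while the extraction text names neutrophils. The study describes its triplicates as technical, so the spread between libraries need not be the spread between mice. For the animals of the study the methods name males, 8 weeks old.

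Macrophages take up iron by swallowing old red cells and by transferrin uptake. Haem oxygenase releases iron from haem, ferritin (a shell of heavy and light chains) stores it, and ferroportin, the product of Slc40a1, exports it, helped by the ferroxidase ceruloplasmin. Iron regulatory proteins bind a hairpin in the 5′ untranslated region (UTR) of ferritin and ferroportin transcripts and hold back their translation when iron is scarce, and during infection macrophages are known to retain iron, which withholds it from microbes.

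Levels were taken as transcripts per 1000000 (TPM), a length-corrected unit inferred from the values, which the authors averaged over the transcripts of a gene. The targeted gene Cgas read 1.19 to 3.25 TPM in the 6 WT libraries and 0.0703 to 0.291 TPM in the 6 cGAS-/- libraries, which matches the labels (limma, log2 difference -1.69 in UT with adjusted p = 0.0024, and -1.60 in LPS with adjusted p = 0.0051). All 10 macrophage markers looked up were above 0 in all 12 libraries, with sums of 18901 to 36054 TPM carried mostly by Lyz2 (15701 to 33426 TPM). In each genotype 5 of the 10 were above 0 and 5 below in the log2 difference between LPS and UT. Among those below were Mrc1, from 73.4 to 85.2 TPM in WT UT to 3.85 to 10.9 in WT LPS and from 23.5 to 25.6 in cGAS-/- UT to 0.857 to 1.10 in cGAS-/- LPS, and Cd68, from 973 to 1046 TPM in the untreated libraries to 153 to 506 in LPS. Among those above were Fcgr1, with log2 differences of 2.48 in WT and 2.13 in cGAS-/-, and Itgam, with 0.74 and 1.66. The part of these shifts in the results was not tested. The column totals lay between 447189 and 503156 TPM in 11 libraries and at 709802 TPM in WT LPS replicate 3, which stood apart and is given separately wherever a value rests on it. The median log2 difference over all tested genes was -0.46 for LPS in WT, -0.20 for LPS in cGAS-/- and 0.20 between the LPS groups (-0.29, -0.20 and 0.04 without WT LPS replicate 3), and differences relative to these shifts are given where they bear on a direction. In bulk RNA, fewer cells of a type and less RNA per cell cannot be told apart.

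The ferritin heavy chain gene Fth1, on chromosome 19, was not analysed here, and the heavy chain family was represented by 2 processed pseudogenes, Fth-ps3 on chromosome 8 (chr8:87641785-87642142, plus strand, GRCm39, 358 bases) and Fth-ps2 on chromosome 6 (chr6:39630384-39630899, minus strand, 516 bases). A processed pseudogene is a copy of a spliced transcript put back into the genome. Fth-ps3 aligned over all of its 358 bases with the coding part of the reference transcript of Fth1 (positions 423 to 770 of 929 bases) at 88.0% identity, with 33 mismatches and 10 gap positions. The last 120 bases of Fth-ps3 and the matching stretch of Fth1 (positions 651 to 770 of the transcript, chr19:9962184-9962303, plus strand) are shown because the row with the highest values in the table differs from the active gene at 10 of these 120 bases, which are in capitals.
Fth-ps3: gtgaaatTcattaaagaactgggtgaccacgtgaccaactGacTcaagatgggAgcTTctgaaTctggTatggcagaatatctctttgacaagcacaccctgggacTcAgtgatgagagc
Fth1: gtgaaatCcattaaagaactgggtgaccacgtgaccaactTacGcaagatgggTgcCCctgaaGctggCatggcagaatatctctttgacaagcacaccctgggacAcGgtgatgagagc

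Of the 328 distinct stretches of 31 bases in Fth-ps3, 10 also occurred in an Fth1 transcript and 17 in Fth-ps2, and the longest run shared exactly with Fth1 was 37 bases. The pseudoalignment program named in the processing notes matches reads by such short stretches, with 31 bases as its default length, and the setting used is not given in the sources used here. Whether reads of Fth1 were counted in the Fth-ps3 and Fth-ps2 rows was not tested, and their values are uncertain for this reason. Ftl1, the light chain gene, shared 815 of its 1530 distinct stretches (53.3%) with other genes, 756 of them with the near copy Ftl1-ps1, so counting could divide its reads between rows. Hmox1, Blvrb and Steap4 shared none of theirs, Slc40a1, Cp, Lcn2 and Aco1 under 1%, and Hamp 14.5% with its neighbour Hamp2.

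The iron-responsive hairpin was looked up in the same annotation as the letters CNNNNNCAGTGN on the transcript strand, with the 5 bases before CAGTGN pairing with the 5 bases after it. Ftl1 and Slc40a1 held it among the 9 member genes with an annotated 5′ UTR, and Fth1 is added for comparison. Across the annotation, 15 of 20927 genes with a 5′ UTR held the paired form (0.0717%) and 18.7% held the unpaired letters. The 28 bases around each are shown because they are the sites through which the regulatory proteins act on these transcripts, with the 6-base loop in capitals.
Ftl1 (chr7:45109206-45109233, minus strand): gtgtcttgcttcaaCAGTGTttgaacgg
Slc40a1 (chr1:45964628-45964655, minus strand): tccaacttcagctaCAGTGTtagctaag
Fth1 (chr19:9960094-9960121, plus strand): gtttcctgcttcaaCAGTGCttgaacgg

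The Ftl1 and Fth1 hairpins differed at few places, while that of Slc40a1 kept the loop letters on another stem. Fth-ps3 covers only a coding part of Fth1, so no hairpin was looked for there. The hairpin acts on translation in its known role, and the libraries measured transcript levels only.

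Fth-ps3 had the highest value of the table in every one of the 12 libraries and was highest in the LPS groups. Its annotation holds 1 transcript while that of Ftl1 holds 11, so a rank among values averaged over transcripts is not a rank of the genes' total output. It read 27927, 29268 and 30118 TPM in WT UT and 39913, 37295 and 39591 TPM in cGAS-/- UT. It read 52691, 73618 and 225334 TPM in WT LPS and 89043, 88357 and 86439 TPM in cGAS-/- LPS. Each genotype's LPS libraries lay above its untreated libraries, and the 3 untreated cGAS-/- libraries lay above the 3 untreated WT libraries. The LPS groups overlapped, since WT LPS replicates 1 and 2 lay below and replicate 3 far above the cGAS-/- LPS libraries. The mean was 29104 ± 1105 TPM (SD, n = 3) in WT UT, 38933 ± 1428 in cGAS-/- UT, 117214 ± 94217 in WT LPS and 87946 ± 1350 in cGAS-/- LPS.

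On the log2(TPM + 1) scale used for all differences below, the difference of Fth-ps3 between LPS and UT was 1.72 in WT and 1.18 in cGAS-/- (SE 0.39), and 1.10 in WT without WT LPS replicate 3. Between genotypes the difference of Fth-ps3 was 0.42 in UT. In LPS it was -0.12 with all libraries and 0.50 (SE 0.12) without WT LPS replicate 3, and -0.62 after median-ratio scaling, so its sign rested on that library and its size on the scaling. Column totals sum the averaged values of the deposited genes only, so a share of them is not a share of all transcripts. The Fth-ps3 row held 6.24 to 6.66% of the column total in WT UT and 7.88 to 8.42% in cGAS-/- UT. In WT LPS its share was 10.6, 15.5 and 31.7%, and in cGAS-/- LPS it was 17.2 to 17.7%.

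Fth-ps2 followed the same order of groups at a lower level. It read 6904, 7621 and 7733 TPM in WT UT and 10124, 10110 and 10536 TPM in cGAS-/- UT. In LPS it read 14417, 17963 and 34236 TPM in WT and 22015, 21796 and 21837 TPM in cGAS-/-. The ratio of Fth-ps3 to Fth-ps2 was 3.65 to 4.10 in 11 libraries and 6.58 in WT LPS replicate 3, where the heavy chain rows parted from their usual proportion. The LPS difference of Fth-ps2 was 1.48 in WT and 1.09 in cGAS-/- (SE 0.25), and its difference between the LPS groups was 0.08. Without WT LPS replicate 3 the former was 1.12 in WT and the latter 0.44 (SE 0.09).

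Ftl1 was lower in the LPS groups as deposited. It read 5224, 5223 and 5244 TPM in WT UT and 5806, 5523 and 5218 TPM in cGAS-/- UT, and these groups overlapped. It read 4351, 3478 and 3663 TPM in WT LPS and 2725, 2708 and 2764 TPM in cGAS-/- LPS, where all 3 libraries lay below every WT LPS library. The mean was 5230 ± 11.9 TPM (SD, n = 3) in WT UT, 5515 ± 294 in cGAS-/- UT, 3831 ± 460 in WT LPS and 2733 ± 28.7 in cGAS-/- LPS.

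The log2 difference of Ftl1 between LPS and UT was -1.01 in cGAS-/- (SE 0.14) and -0.46 in WT, where the median of all genes was also -0.46 and the difference of Ftl1 turned to 0.36 after median-ratio scaling. Leaving out WT LPS replicate 3 gave -0.43 (SE 0.09) for Ftl1 in WT against a median of -0.29, so the match with the median rested on that library. Between the LPS groups it was -0.48 with all libraries, -0.51 without WT LPS replicate 3 and -0.98 after median-ratio scaling. The near copy Ftl1-ps1 read 185 to 246 TPM in the untreated libraries, 110 to 451 TPM in WT LPS and 97.5 to 105 TPM in cGAS-/- LPS. Ftl1-ps2 and Ftl2-ps, the other light chain rows, stayed at or under 18.5 TPM in all 12 libraries.

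The heavy and light chain rows lay further apart in the LPS libraries. Because each deposited value is averaged over a gene's transcripts, the ratio of Fth-ps3 to Ftl1 is read between libraries only and not as a ratio of molecules. It was 5.35 to 5.74 in WT UT and 6.75 to 7.59 in cGAS-/- UT. It was 12.1, 21.2 and 61.5 in WT LPS and 31.3 to 32.7 in cGAS-/- LPS, so the cGAS-/- LPS libraries lay above WT LPS replicates 1 and 2 and below replicate 3.

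**Figure D1:**
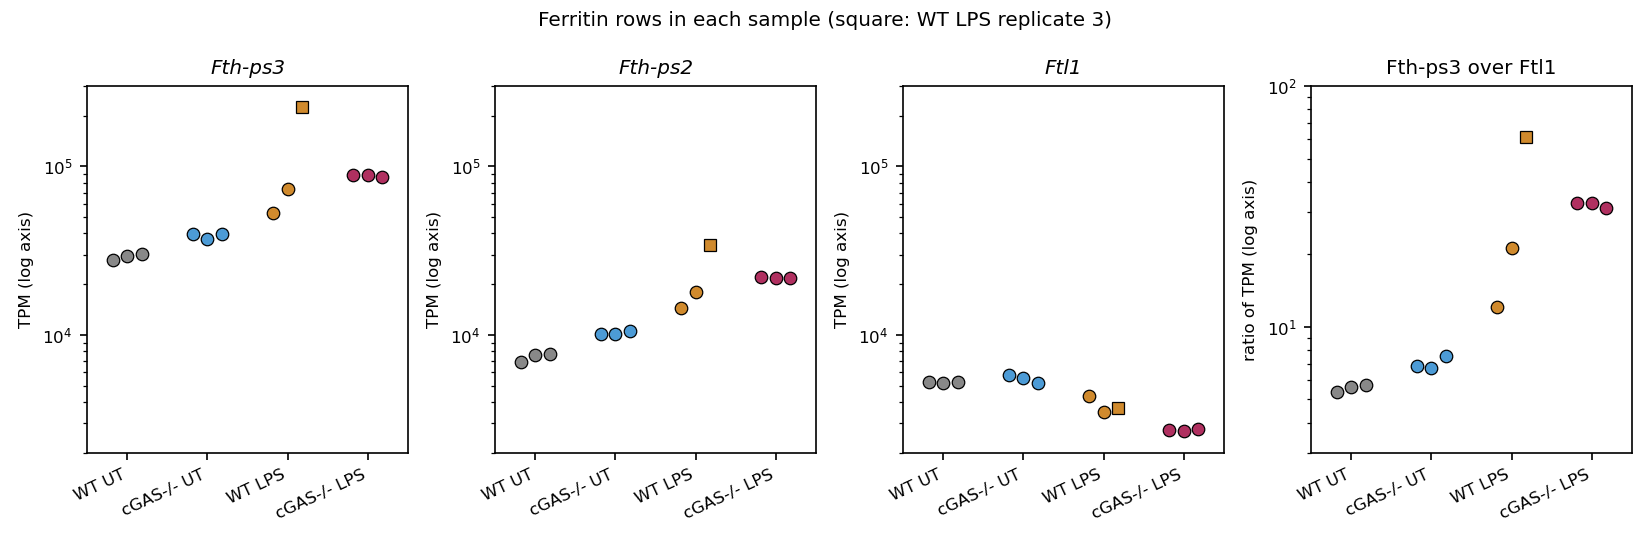
TPM of the heavy chain rows Fth-ps3 and Fth-ps2 and of the light chain gene Ftl1, and the ratio of Fth-ps3 to Ftl1, in each of the 12 libraries (vertical axes are logarithmic, 1 point per library, 3 per group, square for WT LPS replicate 3). Fth-ps3 and Fth-ps2 are higher in the LPS groups, Ftl1 is lowest in cGAS-/- LPS at 2708 to 2764 TPM, and WT LPS replicate 3 has the highest ratio, 61.5.

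Slc40a1, which encodes ferroportin, the exporter that lets iron out of macrophages, was low in LPS. It read 5.95, 4.97 and 4.55 TPM in WT UT and 9.47, 10.2 and 9.42 TPM in cGAS-/- UT, and every untreated cGAS-/- library lay above every untreated WT library. It read 1.17, 0.829 and 0.0920 TPM in WT LPS and 0.482, 0.398 and 0.396 TPM in cGAS-/- LPS, and these groups overlapped through WT LPS replicate 3 alone. The mean was 5.16 ± 0.715 TPM (SD, n = 3) in WT UT, 9.70 ± 0.444 in cGAS-/- UT, 0.698 ± 0.553 in WT LPS and 0.425 ± 0.0489 in cGAS-/- LPS. The UT means of Slc40a1 were thus 7.38 times the LPS mean in WT and 22.8 times in cGAS-/-, on values under 1.2 TPM in LPS.

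The log2 difference of Slc40a1 between LPS and UT was -1.91 in WT (-1.62 without WT LPS replicate 3) and -2.91 in cGAS-/- (SE 0.24). With all libraries it was -1.45 and -2.71 relative to the median of all genes. Between genotypes it was 0.80 in UT and -0.20 in LPS, and in LPS it was -0.49 without WT LPS replicate 3 and -0.30 after median-ratio scaling. As large a difference in either direction between the untreated genotypes was seen in 6.47% of all tested genes.

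Cp, which encodes ceruloplasmin, the copper enzyme that oxidizes exported iron so that transferrin can carry it, went opposite to Slc40a1. It read 0.388, 0.988 and 0.569 TPM in WT UT and 0.10, 0.0598 and 0.0855 TPM in cGAS-/- UT, at the low end of the scale. It read 2.50, 6.30 and 4.63 TPM in WT LPS and 8.97, 9.02 and 8.81 TPM in cGAS-/- LPS. The genotypes did not overlap in UT, with cGAS-/- lower, or in LPS, with cGAS-/- higher. The mean was 0.648 ± 0.308 TPM (SD, n = 3) in WT UT, 0.0818 ± 0.0204 in cGAS-/- UT, 4.47 ± 1.90 in WT LPS and 8.93 ± 0.109 in cGAS-/- LPS.

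The log2 difference of Cp between LPS and UT was 1.68 in WT and 3.20 in cGAS-/- (SE 0.25). Between genotypes it was -0.59 in UT and 0.92 in LPS, and in LPS it was 0.97 without WT LPS replicate 3 and 0.50 after median-ratio scaling. The difference of the LPS effects (cGAS-/- minus WT) was 1.51, as large as in 4.43% of all tested genes, and 1.01 after median-ratio scaling.

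Hmox1, the inducible haem oxygenase that opens the haem ring and frees its iron, was abundant in every group. It read 221, 213 and 210 TPM in WT UT and 316, 312 and 323 TPM in cGAS-/- UT, without overlap. It read 627, 744 and 123 TPM in WT LPS, and 646, 640 and 638 TPM in cGAS-/- LPS. WT LPS replicates 1 and 2 were close to the cGAS-/- LPS libraries, while replicate 3 lay below every untreated library. The mean was 215 ± 5.84 TPM (SD, n = 3) in WT UT, 317 ± 5.80 in cGAS-/- UT, 498 ± 330 in WT LPS and 641 ± 4.50 in cGAS-/- LPS.

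Between genotypes the log2 difference of Hmox1 was 0.56 in UT and 0.73 in LPS (SE 0.52). Without WT LPS replicate 3 the latter became -0.09 (SE 0.09), and the LPS difference in WT went from 0.84 to 1.67, against 1.02 in cGAS-/-. Median-ratio scaling gave 0.23 between the LPS groups and 1.65 for LPS in WT. Blvrb, a biliverdin reductase, differed little outside the WT LPS group. It read 49.7, 50.6 and 49.4 TPM in WT UT and 52.3, 47.1 and 47.9 TPM in cGAS-/- UT, which overlapped. It read 96.2, 59.1 and 17.1 TPM in WT LPS and 56.8, 58.5 and 55.6 TPM in cGAS-/- LPS, and the WT LPS libraries spread around all other groups. The log2 difference of Blvrb between the LPS groups was 0.29 with all libraries, -0.40 without WT LPS replicate 3 and -0.19 after median-ratio scaling. Its LPS difference was 0.21 in cGAS-/- (SE 0.47, and 0.49 after median-ratio scaling) and -0.11 in WT, where it turned to 0.59 without WT LPS replicate 3 and 0.68 after median-ratio scaling.

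Lcn2, which encodes lipocalin 2, a secreted protein that binds bacterial siderophores and so keeps iron from bacteria, had the largest LPS difference of the members. It read 8.71, 3.71 and 3.35 TPM in WT UT and 0.904, 3.89 and 10.3 TPM in cGAS-/- UT, and these groups overlapped. It read 126, 93.6 and 49.1 TPM in WT LPS and 377, 348 and 366 TPM in cGAS-/- LPS, where each library was above every WT LPS library. The mean was 5.26 ± 3.0 TPM (SD, n = 3) in WT UT, 5.03 ± 4.80 in cGAS-/- UT, 89.6 ± 38.7 in WT LPS and 363 ± 14.7 in cGAS-/- LPS, a ratio of 4.05 between the LPS means.

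The log2 difference of Lcn2 between LPS and UT was 3.85 in WT and 6.27 in cGAS-/- (SE 0.58), the latter matched in size by 0.0673% of all tested genes. Over the members and comparisons such shares ran from 0.0673% to 92.4%, the highest for Blvrb in UT. They were 61.9% for Ftl1 for LPS in WT and 82.5% for Fth-ps3 between the LPS groups. Between the LPS groups the difference of Lcn2 was 2.11 with all libraries and 1.73 without WT LPS replicate 3. Lcn2 is also a neutrophil granule gene. The 11 neutrophil markers looked up summed to 173 to 244 TPM in WT UT, 85.8 to 157 in cGAS-/- UT, 92.0 to 403 in WT LPS and 98.1 to 125 in cGAS-/- LPS. Of the 8 that passed the filter, 2 were above 0 and 6 below in the difference between the LPS groups (cGAS-/- minus WT), and 4 were above and 4 below for LPS in cGAS-/-. For LPS in cGAS-/- the granule genes Camp, from 0 to 0.650 TPM in UT to 2.76 to 4.92 in LPS, and Mmp8, from 14.1 to 16.4 to 26.7 to 35.1, were among those above 0. The granule genes Ngp and Ltf were among those below, with log2 differences of -0.40 and -0.12, as was S100a9 with -1.11. Elane, Mpo and Prtn3 stayed under 1 TPM in all 12 libraries, and the part of these markers in the Lcn2 values was not tested.

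Hamp, which encodes hepcidin, the hormone that makes cells take ferroportin off their surface, was listed at 0 in 10 of 12 libraries. It read 7.33 TPM in WT LPS replicate 1 and 0.812 TPM in cGAS-/- LPS replicate 1. Steap4, a reductase of iron and copper, stayed at or under 0.291 TPM in all 12 libraries. With no depth known, neither gene could be compared between groups.

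Aco1, the cytosolic aconitase that becomes iron regulatory protein 1 when it loses its iron-sulfur cluster, was lower in LPS. It read 8.33, 8.24 and 6.99 TPM in WT UT and 8.28, 8.35 and 8.30 TPM in cGAS-/- UT, and these groups overlapped. It read 2.13, 4.39 and 0.382 TPM in WT LPS and 4.60, 4.80 and 4.44 TPM in cGAS-/- LPS. The cGAS-/- LPS libraries lay above all WT LPS libraries, by a narrow gap to replicate 2 and a wide one to replicate 3. The mean was 7.85 ± 0.747 TPM (SD, n = 3) in WT UT, 8.31 ± 0.0335 in cGAS-/- UT, 2.30 ± 2.01 in WT LPS and 4.61 ± 0.176 in cGAS-/- LPS. The log2 difference of Aco1 between LPS and UT was -1.63 in WT and -0.73 in cGAS-/- (SE 0.38), and without WT LPS replicate 3 the WT value was -1.10, while median-ratio scaling gave -1.15 in WT and -0.47 in cGAS-/-. Between the LPS groups it was 0.97 with all libraries and 0.45 without that library.

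**Figure D2:**
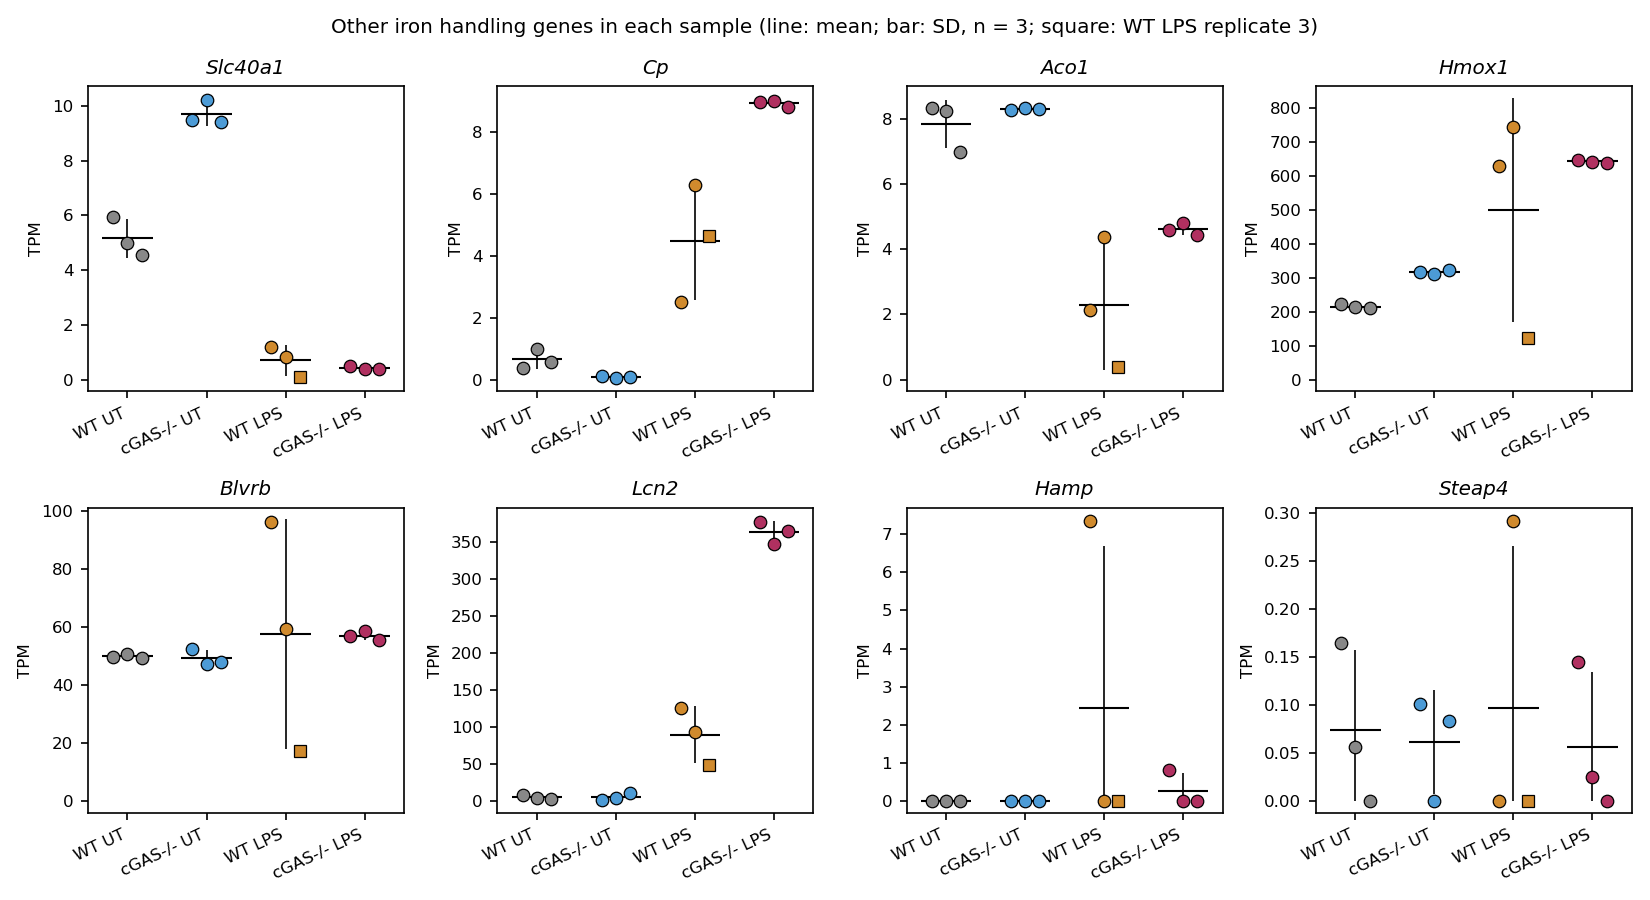
TPM of the other 8 genes in each of the 12 libraries (1 point per library, horizontal line for the mean, vertical bar for the SD with its lower end stopped at 0, n = 3, square for WT LPS replicate 3). Slc40a1 and Aco1 are lower in LPS, Cp and Lcn2 are highest in cGAS-/- LPS at about 8.93 and 363 TPM, and WT LPS replicate 3 is far below the rest of its group for Hmox1 and Blvrb.

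Counted with the same fit over 11887 genes (limma, adjusted p under 0.05), 6 of the 8 members that passed the filter were called for LPS in WT, with Cp, Fth-ps3 and Lcn2 higher and Aco1, Ftl1 and Slc40a1 lower, where 27.6% of all genes were called (4.31% higher and 23.3% lower). For LPS in cGAS-/- the calls were 4 of 8, with Cp and Lcn2 higher and Ftl1 and Slc40a1 lower, against 13.8% of all genes (4.76% higher and 9.06% lower). Between genotypes 0 of 8 were called in UT (1.83% of all genes), 0 of 8 in LPS (2.36%) and 0 of 8 for the difference of the LPS effects (0.9%). An unadjusted p under 0.05 was reached by 2 of 8 in UT (8.08% of all genes), 4 of 8 in LPS (18.8%) and 4 of 8 for the difference of the LPS effects (11.1%). The genes were picked with these contrasts in view, so nothing is read from these counts. The study also asked for a log2 fold change beyond 2. Here that cut-off was applied on the log2(TPM + 1) scale, which shrinks the differences of genes with low values. With it Lcn2 remained in WT (4.32% of all genes), and Cp, Lcn2 and Slc40a1 remained in cGAS-/- (3.5%).

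Without WT LPS replicate 3 the members called were 8 of 8 for LPS in WT (34.7% of all genes), 7 of 8 for LPS in cGAS-/- (30.8%), 2 of 8 in UT (Hmox1 and Slc40a1, both higher in cGAS-/-, 5.33%), 2 of 8 in LPS (Fth-ps3 higher and Ftl1 lower in cGAS-/-, 8.28%) and 4 of 8 for the difference of the LPS effects (4.56%). Without WT LPS replicate 2 they were 4 of 8 between the LPS groups (27.9% of all genes) and 3 of 8 for the difference of the LPS effects (12.6%). Fitted on the samples compared alone, 3 of 8 were called for LPS in WT (6.02%), which were Cp, Lcn2 and Slc40a1. That fit called 8 of 8 for LPS in cGAS-/- (44.6%), 3 of 8 in UT (10.4%) and 0 of 8 between the LPS groups (0.0421%). By plain order of the values, the 3 libraries of one group lay beyond all 3 of the other for 4 of 8 members between the untreated genotypes (30.5% of all genes), 4 of 8 between the LPS groups (17.7%), 6 of 8 for LPS in WT (38.2%) and 8 of 8 for LPS in cGAS-/- (55.7%).

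**Figure D3:**
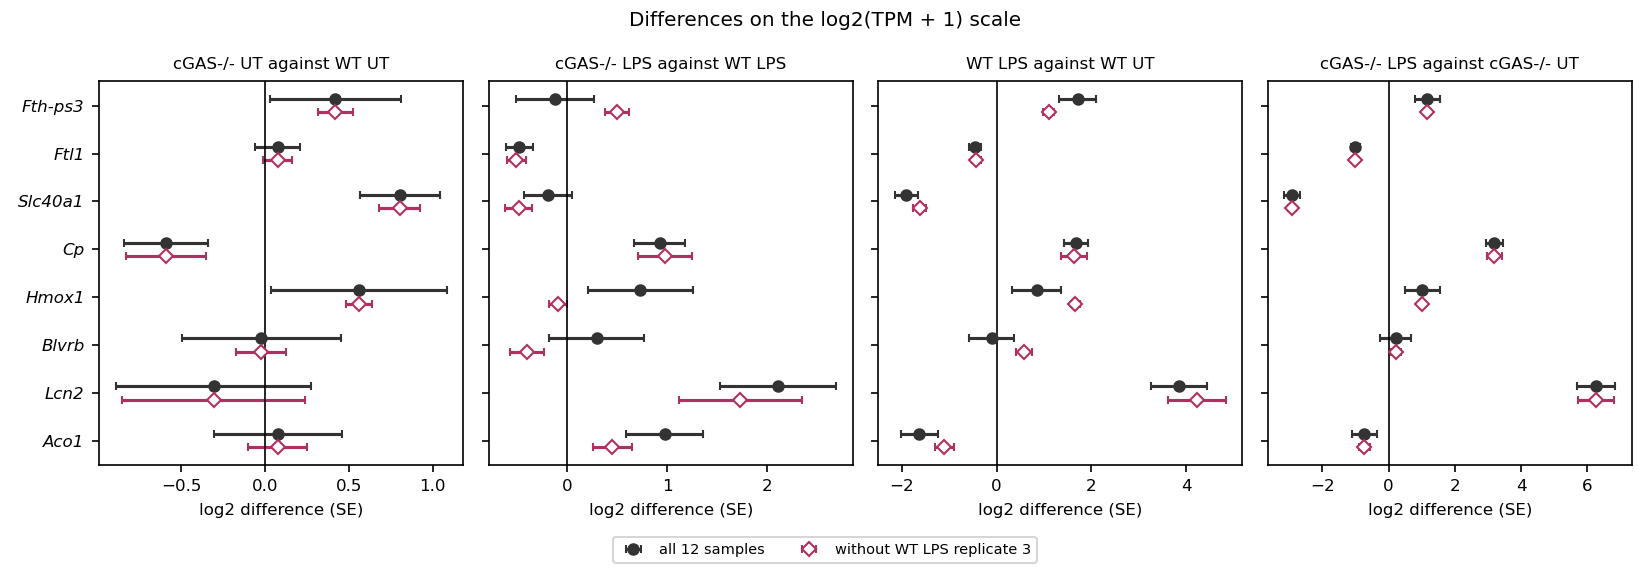
Log2 differences of the 8 members that passed the filter, on the log2(TPM + 1) scale, in 4 comparisons (bars are SE, filled circles for all 12 libraries, open diamonds without WT LPS replicate 3, horizontal scales differ between panels). Leaving out that library moves Fth-ps3 from -0.12 to 0.50 and Hmox1 from 0.73 to -0.09 between the LPS groups, while Ftl1, Cp and Lcn2 keep their side of 0.

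The other genes of iron handling were taken from a list of 92 made by function, of which 59 that are no members were in the table and 48 passed the filter. The list was written with earlier results of these data known, so its counts are a description, set beside those over all genes, where calls for LPS were also mostly lower. In WT, 16 of 48 were called for LPS (33.3%, against 27.6% of all genes), 2 higher (4.31% of all genes) and 14 lower (23.3%), and the median log2 difference was -0.57 against -0.46 over all genes (-0.37 against -0.29 without WT LPS replicate 3). Median-ratio scaling, which removes that shift, gave 5 higher (8.35% of all genes) and 9 lower (11.2%). In cGAS-/-, 12 of 48 were called (25%, against 13.8%), 4 higher (4.76% of all genes) and 8 lower (9.06%), with a median of -0.22 against -0.20. The list genes called in both genotypes numbered 9, and the share of all genes called in both was not counted, so nothing is read from that number. Without WT LPS replicate 3 the counts were 23 in WT (34.7% of all genes) and 20 in cGAS-/- (30.8%), and without WT LPS replicate 2 the WT count was 28 (48.7%), so the counts over all genes were higher in these fits too. Fitted on the 6 libraries of a comparison alone, 4 were called in WT (6.02% of all genes), which were Hp, Bmp2, Trf and Steap3, and 25 in cGAS-/- (44.6%).

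Among these list genes, which leave out the members, the one that rose most with LPS was Hp, which encodes haptoglobin, a scavenger of free haemoglobin. It read 0.587 to 2.09 TPM in WT UT, 0.449 to 1.5 in cGAS-/- UT, 16.8 to 30.4 in WT LPS and 95.7 to 111 in cGAS-/- LPS, with no overlap between the LPS groups. The LPS difference of Hp was 3.62 in WT (SE 0.33, adjusted p = 3.1e-05) and 5.87 in cGAS-/- (SE 0.33, adjusted p = 1.3e-06), called under all 23 alternative settings. It was also the one list gene called between the LPS groups (2.08 higher in cGAS-/-, SE 0.33, adjusted p = 0.0094, 1 of 48 against 2.36% of all genes). That call was lost under 4 of 23 settings, a pseudocount of 0.1 among them, with adjusted p from 0.00043 to 0.16. Hp, like Lcn2, is a gene of neutrophil granules and of the acute phase, the neutrophil marker values are those given with Lcn2, and their part in the Hp result was not tested.

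Hif1a, a transcription factor of the response to low oxygen that also acts on iron genes, rose with LPS as well. It read 9.01 to 10.9 TPM in WT UT and 9.91 to 11.1 in cGAS-/- UT, and 18.0 to 41.5 in WT LPS and 51.5 to 55.6 in cGAS-/- LPS. The LPS difference of Hif1a was 1.41 in WT (SE 0.28, adjusted p = 0.0045) and 2.23 in cGAS-/- (SE 0.28, adjusted p = 0.00028), and the difference of these effects did not pass the test (0.83, SE 0.40, adjusted p = 0.48). Slc11a1, the phagosome iron and manganese pump, and Alas1, the first enzyme of haem synthesis, were with Hp and Hif1a the 4 called higher with LPS in cGAS-/-. Their LPS differences in cGAS-/- were 0.94 (SE 0.24, adjusted p = 0.025) and 1.26 (SE 0.37, adjusted p = 0.043), lost under 6 and 11 of 23 settings.

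Of the 6 iron uptake and reduction genes tested, 4 were called lower with LPS in WT (23.3% of all genes), Trf, Steap3, the metal transporter Slc39a8 (-1.08) and Ltf (-0.80), and 2 were not called. In cGAS-/- 3 were called lower (9.06%), Trf, Steap3 and Slc39a8 (-1.20), 1 higher (4.76%), Slc11a1, and 2 were not called. Trf, which encodes transferrin, the plasma carrier of iron, read 72.5 to 75.3 TPM in WT UT and 35.2 to 40.2 in cGAS-/- UT, and 3.56 to 20.5 in WT LPS and 4.03 to 6.07 in cGAS-/- LPS. The LPS difference of Trf was -2.79 in WT (SE 0.44, adjusted p = 0.0012) and -2.70 in cGAS-/- (SE 0.44, adjusted p = 0.0018). Steap3, the endosomal reductase that readies transferrin-borne iron for entry into the cytosol, read 11.5 to 12.8 TPM in WT UT and 9.38 to 10.4 in cGAS-/- UT, and 0.538 to 3.17 in WT LPS and 1.14 to 1.56 in cGAS-/- LPS. The LPS difference of Steap3 was -2.35 in WT (SE 0.30, adjusted p = 0.00031) and -2.27 in cGAS-/- (SE 0.30, adjusted p = 0.00045). Both genes were called in both genotypes under all 23 settings.

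Among genes of haem uptake, export and breakdown, 1 of 10 tested was called higher with LPS in WT, which was Hp (4.31% of all genes), and 4 lower (23.3%), Lrp1, Flvcr1, Slc46a1 (-1.19) and Cd163, of which Cd163 was lost under 3 of 22 settings. In cGAS-/- 1 was called higher (4.76%), again Hp, and 2 lower (9.06%), Flvcr1 and Slc46a1 (-1.07). Flvcr1, a haem exporter, fell by 1.20 in WT (SE 0.25, adjusted p = 0.0054), a call lost after median-ratio scaling, and by 1.51 in cGAS-/- (SE 0.25, adjusted p = 0.0018). Lrp1, an uptake receptor for haem bound to hemopexin, fell by 2.53 in WT (SE 0.59, adjusted p = 0.010) and read -1.79 in cGAS-/- (SE 0.59, adjusted p = 0.071). It was 66.1 to 70.0 TPM in WT UT and 13.4, 31.3 and 2.59 TPM in WT LPS, and 85.4 to 95.3 TPM in cGAS-/- UT and 25.3 to 25.9 TPM in cGAS-/- LPS, without overlap between UT and LPS in either genotype. The WT difference was -1.67 without WT LPS replicate 3. In haem synthesis 2 of 9 were called lower in WT (23.3% of all genes), Urod and Uros, which were lost under 16 of 23 and 20 of 22 settings, and 1 of 9 higher in cGAS-/- (4.76%), the Alas1 described above. The adjusted p of Uros was 0.066 without WT LPS replicate 3. Among 13 genes of mitochondrial iron and iron-sulfur assembly, 2 were called lower in WT (23.3% of all genes), Iba57 and Abcb10. Abcb10, a mitochondrial inner membrane transporter tied to haem synthesis, fell by 1.46 in WT (SE 0.36, adjusted p = 0.014), a call lost on the 6 libraries alone and without WT UT replicate 3, and the call of Iba57 was lost under 5 of 22 settings.

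Among the signals that set hepcidin, Bmp2, a bone morphogenetic protein that stimulates hepcidin transcription, fell with LPS in both genotypes. It read 17.9 to 20.5 TPM in WT UT and 4.81 to 7.36 in cGAS-/- UT, and 0 to 1.98 in WT LPS and 0.255 to 0.582 in cGAS-/- LPS. The LPS difference of Bmp2 was -3.71 in WT (SE 0.35, adjusted p = 3.2e-05) and -2.35 in cGAS-/- (SE 0.35, adjusted p = 0.00091). Hfe, a partner of transferrin receptors in iron sensing, fell by 1.42 in cGAS-/- (SE 0.23, adjusted p = 0.0018) and by 0.99 in WT (SE 0.23, adjusted p = 0.011), and the WT call was lost after median-ratio scaling. Between the untreated genotypes 2 of 48 list genes were called (4.17%, against 1.83% of all genes), Id1 higher and Ltf lower in cGAS-/-.

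Id1, a target of bone morphogenetic protein signalling, read 0.165 to 0.432 TPM in WT UT and 11.7 to 14.2 TPM in cGAS-/- UT, and 0 to 1.58 in WT LPS and 0.233 to 1.11 in cGAS-/- LPS. Its genotype difference in UT was 3.38 (SE 0.32, adjusted p = 0.00028), and its LPS difference was -3.12 in cGAS-/- (SE 0.32, adjusted p = 6.7e-05) and 0.24 in WT (SE 0.32, adjusted p = 0.57). The difference of the LPS effects was -3.36 (SE 0.45, adjusted p = 0.0050), the one list gene called in that comparison (1 of 48, against 0.9% of all genes), and the call was lost with a pseudocount of 0.1, with adjusted p from 0.00027 to 0.23 over the alternatives. Ltf, which encodes lactoferrin, an iron-binding protein of neutrophil granules, read 1.14 to 1.25 TPM in WT UT and 0.114 to 0.173 TPM in cGAS-/- UT, a difference of -0.95 (SE 0.13, adjusted p = 0.0030), lost after quantile normalization, with adjusted p from 4.7e-05 to 0.090 over the alternatives. It is itself one of the neutrophil markers, whose summed level was also lower in cGAS-/- UT, and the part of that in the result was not tested.

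**Figure D4:**
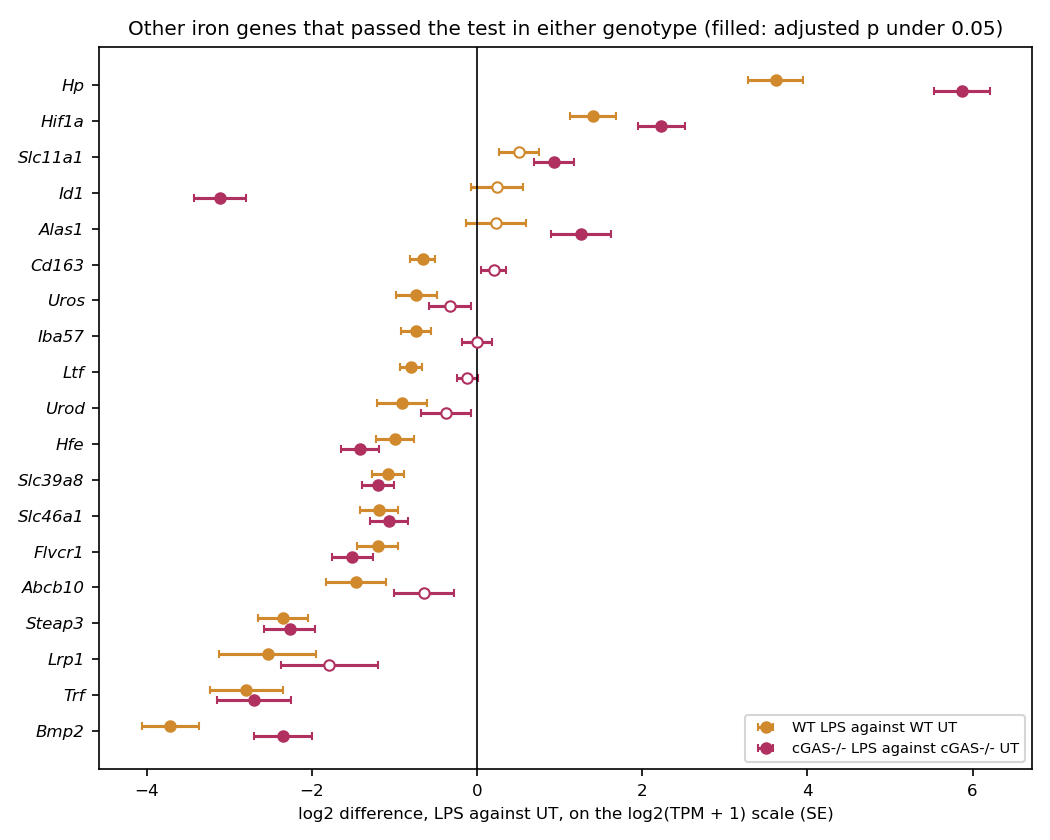
LPS differences of the 19 other iron genes that were called in at least one genotype, on the log2(TPM + 1) scale (bars are SE, ochre for WT and purple for cGAS-/-, filled where the adjusted p was under 0.05). Hp is at the top with 3.62 and 5.87, Bmp2 at the bottom with -3.71 and -2.35, and Id1 is called in cGAS-/- alone.

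The genes whose values followed each member most closely over the 12 libraries were named by Pearson's r of log2(TPM + 1), as a description across libraries that share the same 4 groups. For Fth-ps3 they were Fth-ps2 (r = 0.98), the chemokine gene Cxcl16 (0.98) and Gm9359 (0.97), and for Ftl1 they were Cd63 (0.98), a lysosome membrane protein, Enpp1 (0.97) and Map1lc3a (0.97). Slc40a1 was followed by Hmga2 (0.99), Lsp1 (0.98) and Asph (0.98), and Cp by Gm32856 (0.99), Pid1 (0.98) and Gm9973 (0.98). For Hmox1 they were Clec4d (0.98), Vmp1 (0.97) and Leng9 (0.97), and for Blvrb they were 2310011J03Rik (0.99), Snrpd3 (0.98) and Cib1 (0.98). Lcn2 was followed by Hp (0.99), the cytokine gene Il1b (0.99) and Nfkbia (0.99), and Aco1 by Cpne3 (0.995), Psip1 (0.99) and Ski (0.99).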

How the data were processed

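The authors deposited 1 table of normalized expression for 12 libraries (strand-specific, paired-end), made per the submitters' processing notes with fastp, STAR and kallisto on GRCm39 and averaged over the transcripts of a symbol. Versions and the number of transcripts averaged are not given in the sources used here. The deposited values were taken as transcripts per 1000000 (TPM) from the values and the named tools. They carry no read counts, so depth is unknown, levels of genes with several transcripts cannot be compared with each other, and precision rests on 3 libraries a group. The authors used edgeR and limma in R. The table stops within chromosome 13, and genes beyond it, Fth1 and Tfrc among them, were not analysed here.

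Genes at 1 or more in at least 3 of 12 samples after rescaling to 1000000 were tested (11887) with limma 3.58.1 in R 4.3.3 on log2(TPM + 1), with 1 mean per group over all 12 samples, moderated variance with a trend, and Benjamini-Hochberg adjustment over all genes tested. Calls needed an adjusted p under 0.05, and a second rule also a log2 fold change beyond 2. The script was tested on simulated data. The members, the list of 92 iron genes and the marker lists were chosen with earlier results of these data known. Text names all 10 members, all ferritin rows (in full above 100 TPM), per comparison up to 8 called list genes of largest difference, and the 3 genes most like each member. The other called list genes are also named, chosen after their values were seen. Sequences were read from GRCm39 with GENCODE M39 and compared with blastn 2.17.0. Alternatives changed the pseudocount, the filter, the scaling, the samples fitted, the weights, the trend and the replicate block, and left out each library. Protein sequences were not used here.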

Additional observations from a re-analysis of the deposited data

Results flagged for a closer look

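The response of Id1, a target of bone morphogenetic protein signalling, to LPS differed between genotypes. Its log2 difference between LPS and UT was 0.24 in WT and -3.12 in cGAS-/-, and the difference of these effects was -3.36 (limma, SE 0.45, adjusted p = 0.0050). In untreated cells Id1 read 11.7 to 14.2 TPM in the 3 cGAS-/- libraries and 0.165 to 0.432 TPM in the 3 WT libraries, while the LPS groups overlapped. Without WT LPS replicate 3 the difference of the effects was -3.67 (adjusted p = 0.00064, against 0.00027 to 0.23 over all alternatives).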

How the results depend on the processing

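With a pseudocount of 0.1 the list genes called numbered 0 between the LPS groups and 0 for the difference of the LPS effects, and with a pseudocount of 5 the latter was 3. A filter of 5 left 1 called in UT. Median-ratio scaling and quantile normalization each gave 2 between the LPS groups, and quantile normalization 2 for the difference of the effects. Fitting only the samples compared gave 11 in UT, where the share of all genes called went from 1.83% to 10.4%. It gave 0 between the LPS groups (0.0421% of all genes), 4 for LPS in WT (6.02%) and 25 for LPS in cGAS-/- (44.6%). Sample weights gave 9, 29 and 2 in UT, for LPS in cGAS-/- and for the difference of the effects. Leaving out each library in turn gave 2 to 6 in UT, 0 to 11 between the LPS groups, 13 to 28 for LPS in WT, 9 to 20 for LPS in cGAS-/- and 1 to 7 for the difference of the effects. The extremes came without WT LPS replicate 2 (11, 28 and 7) and replicate 3 (6 and 20), and the 0 came without cGAS-/- LPS replicate 1. Of the list counts, 90 were within 1.5 times the main count and 24 were not. Of the members' differences, 770 moved by less than the spread between replicates, 68 moved by more, and 2 reversed, counting a change of sign only in a value larger than that spread. These were Ftl1 for LPS in WT after median-ratio scaling (0.36) and Ftl1 in UT after quantile normalization (-0.15), and a further 23 values within the spread, among them Fth-ps3 and Hmox1 between the LPS groups without WT LPS replicate 3, also changed sign. Quantile normalization sets the highest row of every library to one value, so the differences of Fth-ps3 were 0 there. The cause of the other changes was not tested. With the replicate block the counts were 2, 1, 14, 12 and 1 for UT, the LPS groups, LPS in WT, LPS in cGAS-/- and the difference of the effects. Same-numbered libraries correlated at -0.03 to 0.04 in their deviations from the group means, which cannot settle whether the numbers pair the samples. Depth is unknown, so Hamp, Steap4 and other rows near 0 set no limit of detection.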
